A study of Mus musculus with 9 samples.

Results

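Retinoic acid and aldehyde metabolism was followed through 9 genes, chosen by symbol, of the 24054 genes counted in splenic type 2 dendritic cells. The aldehyde dehydrogenases were *Aldh1a1*, *Aldh1a2*, *Aldh2* and *Aldh3a2*, the enzymes acting between retinol and retinaldehyde were *Rdh10* and *Dhrs3*, and the receptors were *Rara*, *Rarg* and *Rxra*. Messenger RNA was sequenced in 9 libraries of 3 groups with 3 libraries each. All mice were C57BL/6 and carried Cre under the *Clec9a* locus on both alleles (*Clec9a* cre/cre) together with a TOMATO reporter in the *Rosa* locus, so that a cell with a history of *Clec9a*-driven Cre is TOMATO-labelled (TOM+). Live CD11c+ MHCII+ CD11b+ cells without autofluorescence were sorted as TOM+ cDC2 from 8-day-old mice, as TOM- DC2 from 8-day-old mice and as TOM+ cDC2 from adult mice of 8 or 9 weeks. Each young library came from pooled spleens, and no adult TOM- group was analysed here, so the comparison of young TOM- DC2 with adult TOM+ cDC2 differs in label as well as in age. Libraries are named by the number in their deposited names, 81, 91 and 92 in both young groups and 91, 92 and 95 in adults. Nothing in the labels says whether libraries came from separate sorts, so p-values measure the spread between these libraries.

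Retinol is oxidised to retinaldehyde in a reversible step, for which RDH10 is a main retinol dehydrogenase, while DHRS3 reduces retinaldehyde back to retinol. Retinaldehyde dehydrogenases of the ALDH1A family then make retinoic acid irreversibly, and retinoic acid binds receptors of the RAR family, which act on DNA as heterodimers with RXR. Dendritic cells of the gut are known for ALDH1A2 activity and for the induction of gut-homing receptors and regulatory T cells, and vitamin A metabolites are also known to influence dendritic cell subsets of the spleen. ALDH2 and ALDH3A2 are detoxifying enzymes, the former best known for mitochondrial acetaldehyde and the latter for fatty aldehydes of membranes.

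The 9 genes lie apart from each other in the mouse genome (GRCm38, GENCODE M21). *Rara* is at chr11:98927818-98974942 and *Aldh3a2* at chr11:61223417-61267464, *Rarg* at chr15:102234938-102257517 and *Rxra* at chr2:27676440-27762957. *Aldh1a1* is at chr19:20492715-20643465, *Aldh1a2* at chr9:71215789-71296243 and *Aldh2* at chr5:121566027-121593824. *Rdh10* is at chr1:16105774-16133734 and *Dhrs3* at chr4:144892827-144928209. Of the 9, *Aldh2* alone has exons that overlap those of another annotated gene, Gm42879 on the opposite strand, which the count tables do not list. Genes lying within introns were not looked for.

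Promoter windows from RefSeq (GRCm38.p6), running from 250 bases before to 50 bases after a transcript's start, matched 7 of the 9 genes with 15 windows. *Aldh2* and *Rdh10* had no entry. The windows were searched on both strands for 4 half-site words that RAR and RXR are known to bind. The words were the consensus AGGTCA, the close variant AGTTCA, a further variant GGGTCA, and lastly the word GGTTCA, and they were searched since retinoid receptors and DHRS3 are known to be under feedback by retinoic acid. Of the 15 windows, 5 held a half-site and 0 held 2 half-sites as a direct repeat spaced by 1, 2 or 5 bases. Among all 32851 RefSeq windows, 43.7% held at least 1 half-site, and 0.222%, 0.268% and 0.0974% held direct repeats spaced by 1, 2 and 5. The 3 windows below are shown because *Rara*, *Rxra* and *Aldh1a2* were the members called between ages. For *Rara* and *Rxra*, which have several windows, the one with the most half-sites is shown. All 3 are on the plus strand, and capitals mark the half-sites, some of them on the opposite strand.

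Rara, chr11:98939461-98939760: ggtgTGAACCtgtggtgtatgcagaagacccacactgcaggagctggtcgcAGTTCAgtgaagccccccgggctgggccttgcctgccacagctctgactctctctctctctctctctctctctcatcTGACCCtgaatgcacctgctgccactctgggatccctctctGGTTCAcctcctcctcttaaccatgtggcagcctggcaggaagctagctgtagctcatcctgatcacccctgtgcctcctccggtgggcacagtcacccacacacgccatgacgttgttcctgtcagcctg

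Rxra, chr2:27709042-27709341: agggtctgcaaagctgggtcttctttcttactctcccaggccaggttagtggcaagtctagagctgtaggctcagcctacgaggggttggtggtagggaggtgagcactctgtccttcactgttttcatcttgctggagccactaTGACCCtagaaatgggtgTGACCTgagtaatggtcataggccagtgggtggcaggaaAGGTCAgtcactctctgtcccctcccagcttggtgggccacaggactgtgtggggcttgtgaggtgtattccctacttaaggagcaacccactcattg

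Aldh1a2, chr9:71215539-71215838: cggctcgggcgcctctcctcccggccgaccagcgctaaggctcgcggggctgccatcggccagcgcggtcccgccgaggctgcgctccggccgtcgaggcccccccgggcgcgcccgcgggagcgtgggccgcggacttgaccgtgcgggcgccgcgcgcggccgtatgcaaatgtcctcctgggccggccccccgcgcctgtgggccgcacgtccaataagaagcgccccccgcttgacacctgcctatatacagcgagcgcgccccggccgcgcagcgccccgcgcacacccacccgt

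The *Rara* window held 4 half-sites, at -246, -199, -122 and -81 from the start site, a number reached by 0.581% of all windows. It lies inside the gene at an internal start site, 50 of its 300 bases being exonic, and the other 3 *Rara* windows held 0, 0 and 1. The *Rxra* window, also inside the gene with 50 exonic bases, held 3 half-sites at -105, -87 and -48, and 2.93% of windows held 3 or more. The second *Rxra* window held 0, as did the only *Aldh1a2* window, which has a GC content of 78%. The shares are per window, while the *Rara* and *Rxra* windows shown were picked as those with the most half-sites of their gene. These matches describe letters in a window, and binding was not measured.

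Before the results, the libraries were compared. Gene counts were 12783252 to 22809401 per library. The 7 defining cDC2 markers (*Itgax*, *Itgam*, *Sirpa*, *H2-Ab1*, *Irf4*, *Flt3* and *Zbtb46*) were above 0 in every library. Other lists of markers moved with the groups. The summed level of 8 genes of CCR7+ mature dendritic cells was 734 to 856 TPM (transcript abundance scaled for length and library total) in young TOM+ cDC2, 980 to 1151 in young TOM- DC2 and 2797 to 4024 in adults, and that of 4 ESAM-high cDC2 genes was 209 to 326, 294 to 405 and 654 to 690 TPM. The 7 macrophage genes summed to 173 to 222, 283 to 344 and 101 to 152 TPM. Library 81 of young TOM- DC2 stood apart by neutrophil genes (32.0 TPM summed, against at most 0.84 in any other library) and erythroid genes (643 TPM, against at most 40.1). In bulk libraries, fewer cells of a type and less RNA per cell cannot be told apart.

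Of the 9 genes, 8 were detected at levels that could be tested. *Aldh1a1*, the other retinaldehyde dehydrogenase of the group, had 0 counts in all 9 libraries. A floor of 3 counts was used as an approximate upper bound for a count of 0. It corresponds to 0.132 to 0.235 CPM (counts scaled to the library's gene counts) and covers counting error only. *Aldh1a7*, a near-identical copy of *Aldh1a1*, had 3 counts in library 81 of young TOM- DC2 and 0 elsewhere.

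In young cells of both labels the order of levels in TPM, which is per transcript length, was *Aldh2*, *Rara*, *Aldh3a2*, *Dhrs3*, *Rarg*, *Rxra*, *Rdh10* and *Aldh1a2*. Ranges of neighbours in this order overlapped for *Rdh10* and *Aldh1a2* in TOM- DC2 and for no pair in TOM+ cDC2, with *Rxra* and *Rdh10* only just apart. In adult TOM+ cDC2 the order was *Aldh2*, *Aldh3a2*, *Dhrs3*, *Rara*, *Aldh1a2*, *Rarg*, *Rdh10* and *Rxra*, and ranges overlapped between *Aldh3a2* and *Dhrs3* and between *Aldh1a2* and *Rarg*. *Aldh2* was thus the most abundant of the 9 transcripts in each group, at a mean of 135 TPM ± 6.45 (SD, n = 3), 121 ± 4.75 and 64.5 ± 2.30 in young TOM+ cDC2, young TOM- DC2 and adult TOM+ cDC2. *Rara* moved from the second to the fourth place and *Rxra* to the last.

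**Figure D1:**
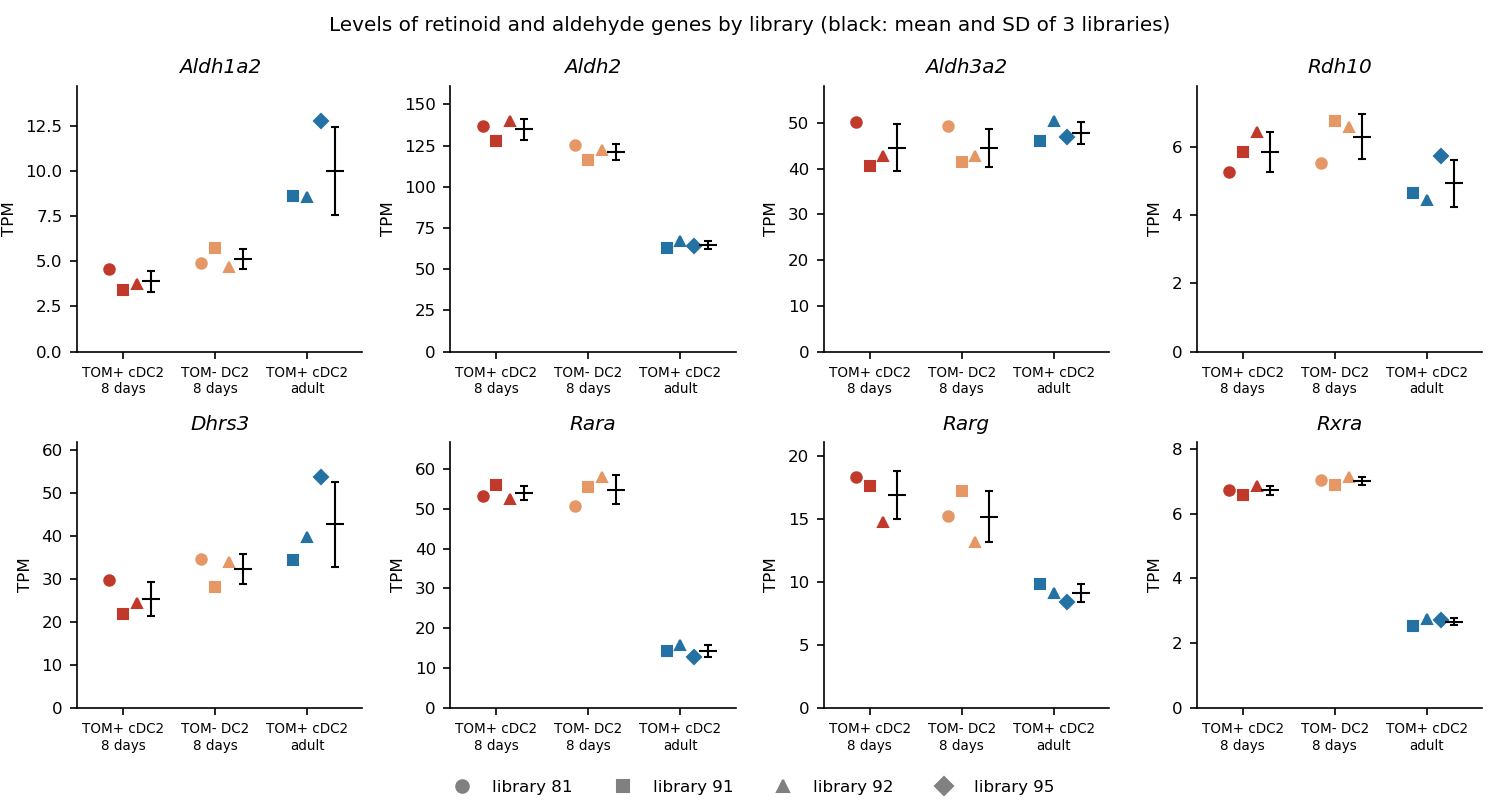
Level in TPM (vertical axis, from 0) of the 8 detected genes in each of the 9 libraries, by group, with marker shapes for library numbers and the mean and SD of each group in black. *Rara*, *Rxra*, *Rarg* and *Aldh2* sit higher in all 6 young libraries than in the 3 adult ones, *Aldh1a2* sits lower, and *Rdh10* and *Aldh3a2* overlap between ages.

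The comparison of TOM+ cDC2 at 8 days and in adults sets the 2 ages side by side within one label. Age was not the only difference, since the marker totals above and the share of reads on no feature also differed. The receptors *Rara* and *Rxra* were higher and *Aldh1a2* was lower in young cells by over 2-fold. *Aldh2* and *Rarg* were also higher and *Dhrs3* and *Aldh3a2* also lower, by less. A gene was called where edgeR's quasi-likelihood test gave a Benjamini-Hochberg adjusted p (padj) under 0.05 over the 14452 genes tested together with a log2 fold change (log2FC) beyond 1 in either direction. By this rule 3 of the 8 tested genes were called, 2 higher and 1 lower, where 12.8% of all tested genes were called, 5.96% higher and 6.86% lower. At padj alone 7 of the 8 passed, against 40.6% of all tested genes, 4 as higher (21% of all) and 3 as lower (19.5%), and in 7 of the 8 the groups did not overlap in normalised counts, against 51.1%. The median log2FC of the 8 was 0.41, and that of all tested genes was 0.05. The members were chosen with earlier results of these data known, so these counts and shares are a description only.

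*Rara*, which had the largest change of the 8, encodes RARα, the most widely expressed RAR isotype. In young TOM+ cDC2 it was at 53.2, 55.8 and 52.5 TPM in libraries 81, 91 and 92, and in adults at 14.2, 15.8 and 12.9 TPM in libraries 91, 92 and 95. The lowest young library was thus over 3-fold above the highest adult one. Its log2FC, young over adult, was 1.76 ± 0.12 (SE), a fold of 3.38, with an edgeR padj of 6.0e-07.

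*Rxra* encodes RXRα, a partner shared by RARs and other nuclear receptors. It was at 6.72, 6.59 and 6.85 TPM in young and at 2.53, 2.76 and 2.71 TPM in adult libraries. Both groups were tight and did not overlap. Its log2FC was 1.21 ± 0.11, a fold of 2.31 (edgeR padj = 6.2e-06).

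*Rarg*, which encodes RARγ, was at 18.3, 17.6 and 14.7 TPM in young and at 9.82, 9.13 and 8.36 TPM in adult libraries. Every young library was above every adult one, but the change stayed within a log2FC of 1, at 0.76 ± 0.14 (edgeR padj = 0.00089). As *Rara* changed more than *Rarg*, the log2 ratio of *Rarg* to *Rara* TPM was -1.67 ± 0.148 (SD, n = 3) in young and -0.65 ± 0.130 in adult TOM+ cDC2, a difference of -1.03. All 3 young ratios were below all 3 adult ones, and the two-sided exact permutation p of 0.1 is the smallest that 3 against 3 libraries can give.

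*Aldh1a2* encodes the retinaldehyde dehydrogenase of the 9 genes that was detected. It was at 4.55, 3.38 and 3.72 TPM in young and at 8.60, 8.58 and 12.8 TPM in adult libraries. Library 95 was the highest, and the groups did not overlap. The log2FC was -1.48 ± 0.18 (edgeR padj = 4.1e-05), and it stayed between -1.58 and -1.16 and was called under each of 19 alternative settings. *Aldh1a3*, of the ALDH1A family but not among the 9, was also detected, at a low level. Its mean was 0.67 TPM in young and 0.64 TPM in adult TOM+ cDC2 (log2FC -0.07, edgeR padj = 0.89).

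*Dhrs3*, which returns retinaldehyde to retinol, was at 29.7, 21.9 and 24.3 TPM in young and at 34.4, 39.7 and 53.7 TPM in adult libraries. The highest young library was below the lowest adult one, and adult library 95 again stood highest. The log2FC was -0.93 ± 0.14 (edgeR padj = 0.00019), just inside 1. Without library 81 of young TOM+ cDC2 it was -1.02, and without adult library 91 it was -1.02, so that *Dhrs3* was then called.

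*Rdh10*, which works in the opposite direction, was at 5.26, 5.87 and 6.44 TPM in young and at 4.66, 4.44 and 5.73 TPM in adult libraries. The ranges overlapped, and its log2FC of 0.07 had a 95% interval of -0.303 to 0.447 (edgeR padj = 0.77), which excludes a change of 2-fold either way. The log2 ratio of *Rdh10* to *Dhrs3* TPM was -2.08 ± 0.338 (SD, n = 3) in young and -3.07 ± 0.183 in adult TOM+ cDC2. This difference of 0.98 separated all libraries of the 2 groups (exact permutation p = 0.1, two-sided, the smallest possible).

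Of the detoxifying dehydrogenases, *Aldh2* was at 137, 128 and 140 TPM in young and at 62.5, 67.0 and 63.9 TPM in adult libraries. The young libraries were all about 2-fold above the adult ones. Its log2FC was 0.94 ± 0.079 (edgeR padj = 3.0e-06). It was called with limma on TPM, where the log2FC was 1.05 with a pseudocount of 1.

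*Aldh3a2* was at 50.3, 40.6 and 42.9 TPM in young and at 46.1, 50.5 and 46.9 TPM in adult libraries. In TPM the ranges overlapped, and the edgeR log2FC on counts was -0.24 ± 0.086 with a padj of 0.045. That padj passed in 10 of 19 alternative settings, over which the log2FC was -0.31 to -0.10.

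**Figure D2:**
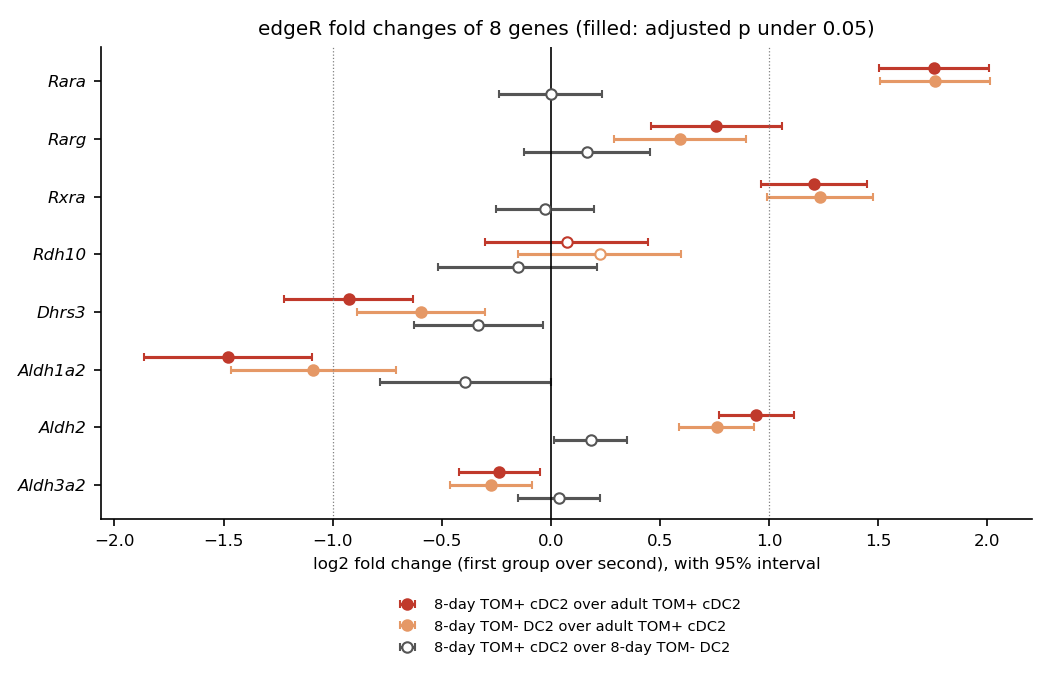
log2 fold change from edgeR (horizontal axis) with its 95% interval for the 8 tested genes in 3 comparisons, with filled points at padj under 0.05 and dotted lines at -1 and 1. *Rara* and *Rxra* lie right of 1 and *Aldh1a2* left of -1 in both comparisons with adults, and all 8 grey points of the young comparison are open.

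The comparison of young TOM- DC2 with adult TOM+ cDC2 shares its 3 adult libraries with the comparison above, so both move with those libraries. *Rara* and *Rxra* were again higher and *Aldh1a2* lower, and the remaining members had smaller differences. As above, 3 of 8 genes were called, 2 higher and 1 lower, where 11.3% of all tested genes were called, 6.5% higher and 4.78% lower. At padj alone 7 of 8 passed, against 36.3% of all tested genes, 4 as higher (19.4%) and 3 as lower (16.9%), and 7 of 8 did not overlap in normalised counts, against 47.6%. The median log2FC was 0.41 for the 8 genes and 0.07 for all tested genes.

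*Rara* was at 50.8, 55.5 and 58.0 TPM in libraries 81, 91 and 92 of young TOM- DC2, far above the 12.9 to 15.8 TPM of adults. Its log2FC was 1.76 ± 0.12 (edgeR padj = 8.4e-07). *Rxra* was at 7.04, 6.88 and 7.14 TPM, with a log2FC of 1.23 ± 0.11 (edgeR padj = 7.4e-06). Both were called under each of the 19 alternative settings. *Rarg* was at 15.2, 17.2 and 13.2 TPM, above all adult libraries, with a log2FC of 0.59 ± 0.14 (edgeR padj = 0.0053). The log2 ratio of *Rarg* to *Rara* was -1.85 ± 0.245 (SD, n = 3), below the adult ratio by 1.20 (difference -1.20, exact permutation p = 0.1).

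*Aldh1a2* was at 4.92, 5.74 and 4.69 TPM in young TOM- DC2, below each adult library, and its log2FC was -1.09 ± 0.17 (edgeR padj = 0.00043). This call was made in 15 of 19 alternative settings. The log2FC was within 1, though past padj, without adult library 95 (-0.89, padj = 0.0019), with limma (-0.83 and -0.93) and with the library number as a block (-0.91), a fit in which library 95 is alone in its block. *Dhrs3* was at 34.5, 28.1 and 33.9 TPM, with the highest library just above the lowest adult one (34.5 against 34.4 TPM), and its log2FC was -0.60 ± 0.13 (edgeR padj = 0.0043). *Rdh10* was at 5.55, 6.78 and 6.59 TPM and overlapped the adult range, with a log2FC of 0.22 and a 95% interval of -0.149 to 0.598 (edgeR padj = 0.33). The log2 ratio of *Rdh10* to *Dhrs3* was -2.33 ± 0.289 (SD, n = 3), higher than in adults by 0.73 (exact permutation p = 0.1).

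*Aldh2* was at 125, 116 and 122 TPM in young TOM- DC2, again well above adults, with a log2FC of 0.76 ± 0.079 (edgeR padj = 1.9e-05). *Aldh3a2* was at 49.3, 41.6 and 42.7 TPM, with a log2FC of -0.27 ± 0.086 (edgeR padj = 0.026) that passed padj in 14 of 19 alternative settings.

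**Figure D3:**
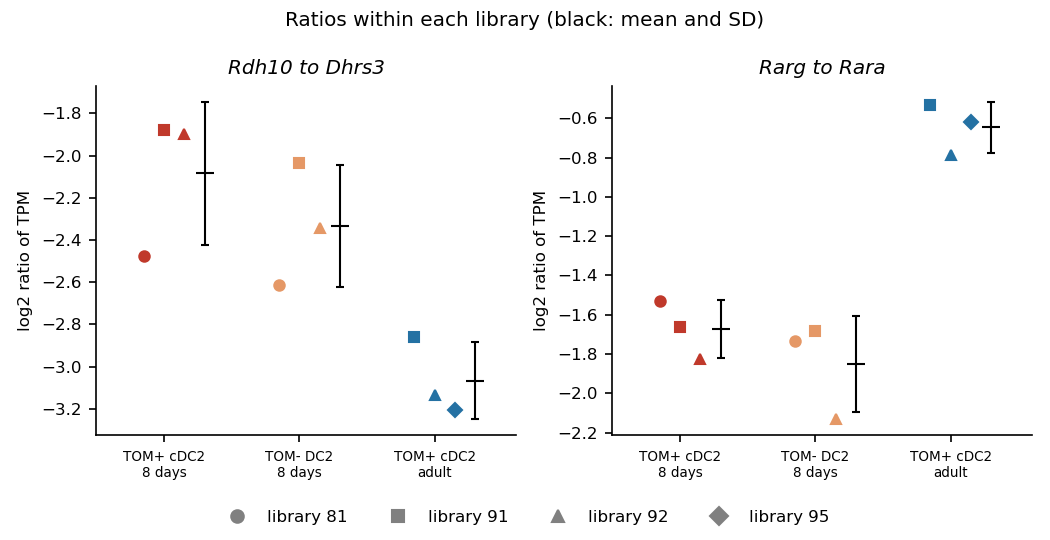
log2 ratio of TPM (vertical axis) of *Rdh10* to *Dhrs3* (left) and of *Rarg* to *Rara* (right) in each library, by group, with the mean and SD in black. All young ratios of *Rdh10* to *Dhrs3* lie above the adult ones (mean -3.07), and all young ratios of *Rarg* to *Rara* lie below the adult ones (mean -0.65).

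Young TOM+ cDC2 and young TOM- DC2 were compared to ask whether a history of *Clec9a* expression relates to these genes at the same age. None of the 8 genes was called, and none passed padj, where 1.18% of all tested genes were called (0.0208% higher and 1.16% lower in TOM+ cDC2) and 1.6% passed padj by edgeR (0.125% higher and 1.47% lower). The unadjusted p was under 0.05 for 2 members, *Dhrs3* (0.030) and *Aldh2* (0.037), and no member was called with DESeq2 or limma either. The groups did not overlap in normalised counts for 3 of the 8, *Aldh1a2*, *Aldh2* and *Dhrs3*, where 16.6% of all tested genes did not overlap.

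The level of *Dhrs3* was lower in TOM+ cDC2 in each of the 3 same-numbered pairs, at 29.7 against 34.5 TPM, 21.9 against 28.1 TPM and 24.3 against 33.9 TPM. Its log2FC was -0.33 (95% interval -0.627 to -0.0372, edgeR padj = 0.43). *Aldh2* was higher in TOM+ cDC2 in 3 of 3 pairs, with a log2FC of 0.18 (0.0133 to 0.351, padj = 0.46). Same-numbered young libraries deviated together, which the main fit does not take into account. A fit of the young libraries alone with these pairs as a block was not run. With the library number as a block over young and adult libraries alike, the edgeR padj was 0.019 for *Dhrs3* (log2FC -0.34) and 0.0498 for *Aldh2* (log2FC 0.18). Neither was beyond a log2FC of 1. In this block fit 949 of the 14452 tested genes passed padj, 322 as higher and 627 as lower in TOM+ cDC2, against 231 in the main fit. *Aldh1a2* was lower in TOM+ cDC2 in 3 of 3 pairs, at a log2FC of -0.39 (-0.784 to 0.000526, padj = 0.53) and a padj of 0.16 with the block.

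The other 5 members differed by less between the young groups. *Rara* had the smallest difference, with a log2FC of -0.00 and a 95% interval of -0.239 to 0.236 (edgeR padj = 1.0). The log2FC of *Rxra* was -0.03 (-0.253 to 0.197), of *Aldh3a2* 0.04 (-0.149 to 0.224), of *Rarg* 0.17 (-0.122 to 0.454) and of *Rdh10* -0.15 (-0.515 to 0.211). All 8 intervals lay within -1 and 1, so a 2-fold difference is outside each of them. The ratio of *Rdh10* to *Dhrs3* differed by 0.25 on the log2 scale (exact permutation p = 0.3) and that of *Rarg* to *Rara* by 0.18 (p = 0.4 by the same exact test).

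*Aldh1a2* and *Dhrs3* were higher in adults, as were most genes listed for CCR7+ mature dendritic cells. The levels of both were set beside that list, of which the plot shows 3 genes. Of the 8 list genes, 6 had their highest TPM of all 9 libraries in adult library 95, as did *Aldh1a2* and *Dhrs3*. The share of all tested genes that peaked in library 95 was not counted, so this count has no background to be set against. Library 95 over the mean of the other adult libraries was 1.49-fold for *Aldh1a2* and 1.45-fold for *Dhrs3*, against 1.53-fold for *Ccr7*, the receptor that guides mature dendritic cells, 1.60-fold for *Cacnb3*, 1.59-fold for *Il4i1* and 1.92-fold for *Socs2*. The same ratio was 1.39 for *Ccl22*, 1.27 for *Fscn1* and 1.19 for *Ccl5*, and *Ccl17* went the other way at 0.303. In edgeR 5 of the 8 list genes were called lower in young TOM+ cDC2 than in adults and 1, *Ccl17*, was called higher, where 6.86% and 5.96% of all tested genes were. *Il4i1*, 1 of the 5 called lower, had 193 to 319 TPM in adults but few STAR counts, and its counts are uncertain. The part of mature cells in the *Aldh1a2* and *Dhrs3* differences was not tested. Without adult library 95 the log2FC of *Aldh1a2* in young TOM+ cDC2 was -1.29 and that of *Dhrs3* -0.76.

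**Figure D4:**
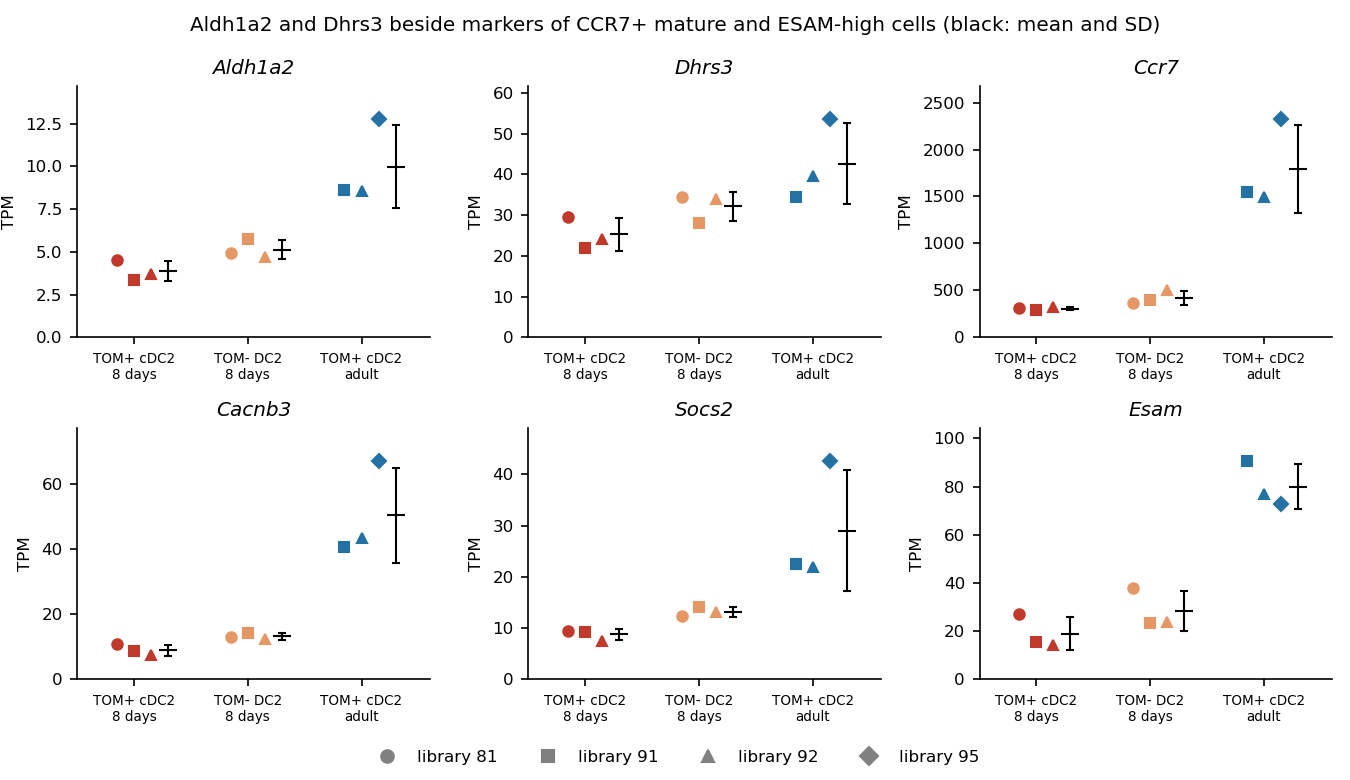
Level in TPM (vertical axis, from 0) of *Aldh1a2* and *Dhrs3* beside 3 markers of CCR7+ mature cells (*Ccr7*, *Cacnb3*, *Socs2*) and the ESAM-high marker *Esam* in each library, with the mean and SD of each group in black. Adult library 95 is the highest of the 9 for the first 5 genes (*Aldh1a2* 12.8 TPM, *Ccr7* 2328 TPM) and the lowest adult library for *Esam*.

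Other genes of retinoid and aldehyde metabolism were taken from 7 lists holding 76 genes, of which 53 were tested. The 23 that were not tested had at most 5 counts in any library, and 9 of them had 0 in all. Between young and adult TOM+ cDC2, 0 of the 53 were called higher and 2 lower, and 10 passed padj as higher and 12 as lower, where 12.8% of all tested genes were called and 40.6% passed padj. In young TOM- DC2 against adults, 3 were called higher and 2 lower, and 12 and 10 passed padj, where 11.3% and 36.3% of all tested genes did so. The median log2FC of the 53 was -0.07 and 0.02 in these comparisons, against 0.05 and 0.07 over all tested genes, and these medians were the same to 2 decimals with genes at 0 in a group left out or set at their bound. Between the young groups 0 were called and 0 passed padj by edgeR, and *Aldh1l1* was called with the library number as a block.

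The 2 genes called lower in both young groups were *Dgat1*, an acyltransferase that can store retinol as its ester, and *Cd38*, an ectoenzyme whose gene responds to retinoic acid. The paper describes CD38 as under control of type I and type II interferon. It reports less CD38 protein on adult cDC2 lacking *Ifnar* than on wild-type cells. Which signal relates to the *Cd38* difference here was not tested. *Dgat1* was at 36.3, 38.8 and 41.9 TPM in young TOM+ cDC2, at 44.2, 52.5 and 64.2 TPM in young TOM- DC2 and at 83.6, 119 and 104 TPM in adults. The young groups did not reach the adult range, and its log2FC against adults was -1.54 (edgeR padj = 2.7e-05) and -1.05 (padj = 0.00048). The second value was within 1 without library 81 of young TOM- DC2 (-0.89) or without adult library 92 (-0.92), and *Dgat1* was also not called there with the library number as a block (-0.92) or with limma. *Cd38* was at 3.06 to 3.93 TPM, 4.56 to 5.46 TPM and 9.65 to 13.6 TPM in the same groups, with a log2FC of -1.73 (edgeR padj = 1.3e-05) and -1.28 (padj = 0.00012).

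The genes called higher in young TOM- DC2 than in adults included *Pparg* and *Aldh1l1*, both low in level. *Pparg*, a nuclear receptor that pairs with RXR, was at 4.68 to 5.38 TPM in TOM- DC2 and at 0.86 to 2.05 TPM in adults (log2FC 1.46, edgeR padj = 0.0011), and at 2.48 to 3.69 TPM in young TOM+ cDC2. *Aldh1l1*, an enzyme of folate metabolism, had 16 to 25 counts in TOM- DC2 and 1 to 6 in adults (log2FC 2.32, edgeR padj = 0.012). Macrophage genes, summed, were also highest in young TOM- DC2, and their part in these differences was not tested.

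**Figure D5:**
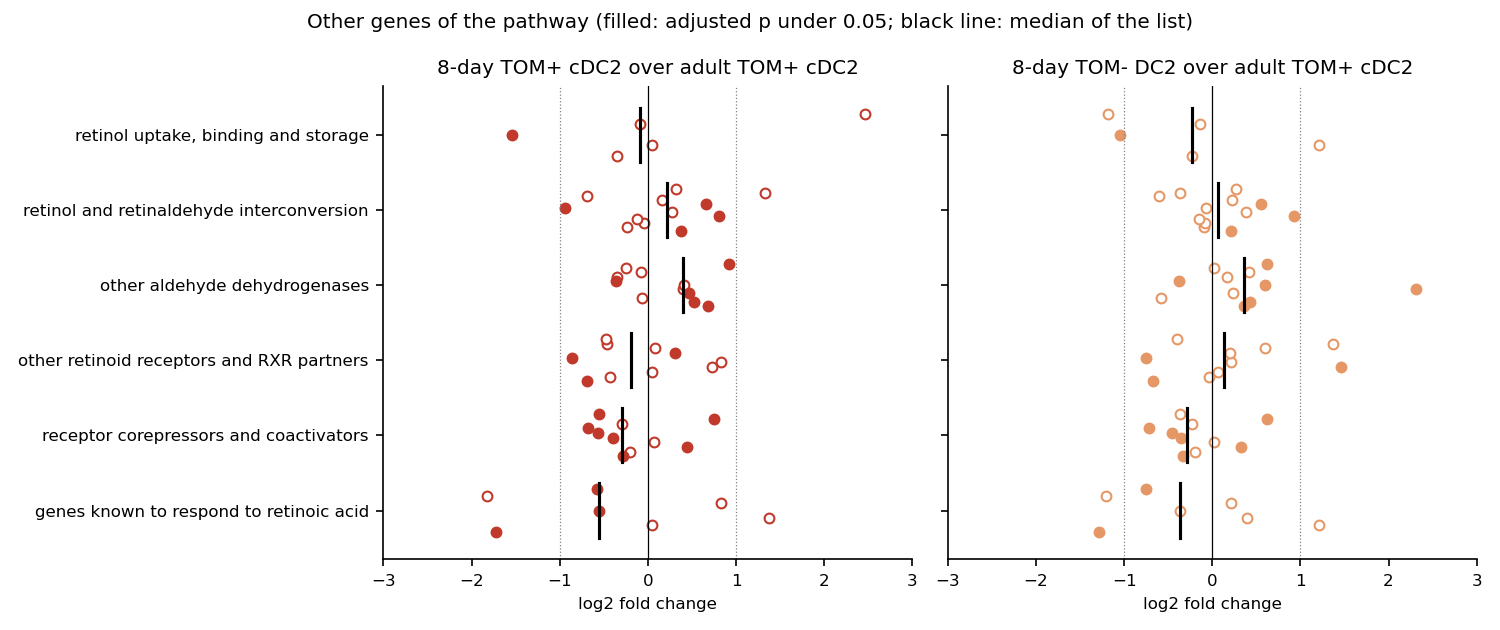
log2 fold change (horizontal axis) of the other pathway genes in 6 lists, young TOM+ cDC2 (left) and young TOM- DC2 (right) against adult TOM+ cDC2, with filled points at padj under 0.05 and a black line at the median of the points shown for each list. Genes without any count in a group are left out, and most points lie between the dotted lines at -1 and 1, with *Cd38* (-1.73 and -1.28) and *Dgat1* (-1.54 and -1.05) among the exceptions.

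By list, none of the 12 tested genes of retinol and retinaldehyde interconversion was called, where 12.8% of all tested genes were called between young and adult TOM+ cDC2. The most abundant members of this list were *Adh5*, an alcohol dehydrogenase, and *Dhrs7* (log2FC -0.12, edgeR padj = 0.32). *Adh5* was at 155 to 163 TPM in young TOM+ cDC2 and 104 to 117 TPM in adults (log2FC 0.38, edgeR padj = 0.0011). Of 11 other aldehyde dehydrogenases, 4 passed padj as higher and 1 as lower in young TOM+ cDC2, with a median log2FC of 0.40, where 21% and 19.5% of all tested genes passed as higher and as lower. Of 10 receptor corepressors and coactivators, with a median log2FC of -0.29 against 0.05 over all tested genes, 2 passed padj as higher and 5 as lower. Among them *Hdac3*, a deacetylase of corepressor complexes, had a log2FC of 0.45 (edgeR padj = 0.0018), and *Ncor1*, a corepressor of unliganded RARs, had -0.30 (padj = 0.056). The 3 genes of retinoic acid breakdown, *Cyp26a1*, *Cyp26b1* and *Cyp26c1*, had at most 1 count in any library. Of 6 tested genes of retinol uptake, binding and storage, 0 passed padj as higher and 1 as lower. For 10 other receptors and RXR partners these counts were 1 and 2, and for 7 genes known to respond to retinoic acid 0 and 3. *Cd38*, which the paper ties to interferon, is among those 3. Some genes stand in more than a single list.

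Across the 9 libraries, the genes whose log2 normalised counts followed each member most closely were listed, as a description in which all points share the gap between ages. For *Rara* they were *Tpm3* (Pearson r = 0.9974) and *Htra3* (0.997), and for *Rxra* they were *Htra3* (0.9988) and *Rpa2* (0.9966), so *Htra3* was listed for both. For *Rarg* they were *Tmem261* (0.992) and *Brcc3* (0.981). For *Aldh1a2* they were *Pitpnc1* (0.9942) and *Cdc42ep3* (0.9913), and for *Aldh2* they were *Sae1* (0.9958) and *Gins2* (0.9955). For *Dhrs3* they were *Herc4* (0.9834) and *Parp8* (0.9814), for *Aldh3a2* *Mvp* (0.9877) and *Vps16* (0.9832), and for *Rdh10* *Rbbp6* (0.9636) and *Trmt10a* (0.9623).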

How the data were processed

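mRNA libraries were prepared by the authors with SMART-seq v4 and read single-end. The authors aligned reads to mm10 with STAR and deposited unnormalised counts per gene, and deposited RSEM expected counts and TPM on RefSeq transcripts (FPKM were not used). STAR's unstranded counts were used, since each strand column held about 50% of stranded reads, so overlapping antisense genes cannot be told apart. Reads on no gene (26.1% to 31.6% of 18327969 to 31524617 reads) were left out. Reads on no feature were 8.84% to 12.8% in young and 15.2% to 17.1% in adult libraries. TPM are relative to each library's total and served for levels. RSEM expected counts were rounded where tested.

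The main test was edgeR 4.0.16 (R 4.3.3), quasi-likelihood with TMM, on all 9 libraries, for the 14452 genes whose counts averaged 1 or more. SE was the log2FC divided by the root of F. Alternatives used DESeq2 1.42.0, apeglm 1.24.0, RLE, RSEM counts, limma 3.58.1 on log2(TPM + 1) and log2(TPM + 0.1), no filter, only the groups compared, library number as a block and each library left out. Ratios added 0.1 TPM. Tested on simulated data with 200 changed of 14452 genes for young against adult TOM+ cDC2, edgeR recovered 100% with 2 false calls. Recovery at the levels and fold changes of the members and listed genes was not tested. No libraries were copies (lowest chi-square per gene 7.84).

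Deviations of same-numbered young libraries correlated (r 0.501 to 0.746, other numbers at most 0.163), so young numbers were taken as pairs on the data alone. Same-numbered young and adult libraries were not taken as pairs (-0.0028 to 0.157). The fit with the library number as a block nevertheless used the number over all 9 libraries. Adult libraries 91 and 92 thus shared a block with the young libraries of those numbers. The members and lists were chosen with earlier results of these data known. Named were all members, list genes called in any comparison and otherwise the 2 most abundant of a list, and the 2 genes most correlated with each member among genes averaging 50 counts or more. *Aldh1a3* and *Aldh1a7* were also named, as further genes of the ALDH1A family. A called gene of the lists is counted but not reported by name here. Single-cell data were not used here.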

Additional observations from a re-analysis of the deposited data

How the results depend on the processing

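*Rara* and *Rxra* kept their calls in both comparisons with adults under all 19 alternatives each, as did *Aldh1a2* in young TOM+ cDC2. In young TOM- DC2 the *Aldh1a2* difference stayed past padj but fell within a log2FC of 1 with limma (-0.83 and -0.93 with pseudocounts of 1 and 0.1), with the replicate block (-0.91, adult library 95 being alone in its block) and without adult library 95 (-0.89). *Aldh2* in young TOM+ cDC2 passed 1 with limma (1.05 and 1.06), and *Dhrs3* did without both young libraries numbered 81 (-1.04). *Dhrs3* in TOM- DC2 missed padj with limma (up to 0.11), *Aldh3a2* likewise (up to 0.43), and *Rdh10* in TOM- DC2 reached a padj of 0.040 with the block. Without a fold threshold 7 members counted in each comparison with adults instead of 3, and 22 other pathway genes instead of 2 and 5. Those genes numbered 4 with limma on log2(TPM + 0.1) in TOM+ cDC2, 1 with limma on log2(TPM + 1) in TOM- DC2, and 1 instead of 0 between the young groups with the replicate block, which raised the calls over all genes there from 170 to 274. The block changed no other call of a member. Leaving out 1 library gave 3 to 4, 2 to 3 and 0 to 0 called members in the 3 comparisons, and 2 to 3, 4 to 6 and 0 to 0 other pathway genes, and 12 to 14 of the member differences passed padj. Direction changed for differences near 0: between the young groups, *Aldh3a2* with limma (-2.94e-05) and without a library (-0.0179 to 0.0817), *Rara* with apeglm (0.000228), RSEM (0.00695), the block (0.00243) and without a library (-0.0877 to 0.058), and *Rxra* without a library (-0.0706 to 0.00961), and, against adults, *Rdh10* in TOM+ cDC2 without a library (-0.0374 to 0.185). The cause of these changes was not tested. Limma on log2(TPM + 0.1) moved the median of all genes by 0.122 and 0.150 against adults, and the share of calls that were higher from 46.5% to 57.4% and from 57.6% to 70.3%. The 3 libraries per group limit the permutation tests, and genes with few counts, such as *Aldh1l1*, have wide errors.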
